A study of Mus musculus with 3 samples.

Results

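Immediate early genes are the first genes transcribed when a cell meets a growth factor, calcium entry, membrane depolarization or physical stress, and they need no new protein for their transcription. Members of the FOS and JUN families pair to form the transcription factor AP-1, EGR proteins are zinc finger transcription factors, and ARC is a cytoskeletal protein of dendrites. In the brain these genes are used as markers of recent neuronal activity, and enzymatic dissociation of tissue and cell sorting are known to induce them. The 10 genes described here, *Fos*, *Fosb*, *Jun*, *Junb*, *Egr1*, *Egr2*, *Ier2*, *Nr4a1*, *Arc* and *Atf3*, were chosen by name, and their probes were found by the RefSeq transcript that each probe carries. All 10 were found, each with 1 probe of the 55681 for mouse transcripts, among 20145 genes that could be named.

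The study compared Lhx6-GFP+ cells made from mouse embryonic stem (ES) cells with their counterparts from the embryonic medial ganglionic eminence (MGE), the source of most cortical interneurons. Total RNA of 3 sorted populations was hybridized with Cy3 label to 1 array each, and the 3 arrays shared 1 slide and 1 scan. The ES-Lhx6-GFP+ population and the ES-Lhx6-GFP- population came from aggregates of the male J14 ES line (129S4/SvJae), which carries a bacterial artificial chromosome with GFP under *Lhx6* control and a 692-mCherry enhancer reporter. The aggregates were differentiated for 12 days with 100 ng/ml Dkk1 and 6 nM SAG, an agonist of the hedgehog pathway. MGE-GFP+ cells came from Lhx6-GFP transgenic embryos of CD1 background at embryonic day 12.5 and were recorded as female. Both GFP+ populations are the cells in which the transgene was active, and ES-Lhx6-GFP- cells are all other living cells of the same aggregates. The ES cells are 1 line, and the number of embryos behind the MGE sample is not given in the sources used here.

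The way in which cells were freed differed between the sources. MGE tissue was treated with 0.05% trypsin/EDTA and 10 µg/ml DNase I at 37 °C for 15 min, whereas 1920 aggregates from 20 plates were treated with the enzyme of a neural dissociation kit, with 10 µM of the ROCK inhibitor Y-27632 in every solution. All cells were then sorted by FACS on GFP after exclusion of dead cells with Sytox Blue. No undissociated sample was measured, so what dissociation itself added to these genes was not tested. Between MGE-GFP+ cells and either ES population, dissociation cannot be told apart from strain, sex, embryo against culture, or cell state. The ES populations shared their aggregates and their dissociation.

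Across the 3 arrays, 77.1 to 90.6% of mouse probes were well above background by the call of the scanner software. Intensities were divided by the 75th percentile of the mouse probes on their array, which was 843 with ES-Lhx6-GFP-, 747 with ES-Lhx6-GFP+ and 576 with MGE-GFP+ RNA, and this scaled level is written below as a multiple of that percentile. With 1 array per population there was no replicate and no test, and precision is limited by the number of arrays. The only error that could be measured was the SD of log2 intensity between repeat spots of a probe on an array. It was 0.139 to 0.144 over all repeated probes and holds no variation between cultures, embryos or sorts. Except for *Fos*, printed 10 times, each of the 10 genes has 1 spot per array. Each gene's SD was therefore taken from repeated probes within 1 log2 unit of its brightness. For *Fos* it was divided by the square root of 10, which gives the error of the mean over spots. A difference was set against 2 SDs, combined over its 2 arrays. Probes for adenovirus E1A and ERCC sequences, 106 in all, gave the signal of probes without a mouse transcript, and the 95th percentile of their intensities was 208, 377 and 152 in that order. The sort marker and the regional genes were as labeled: all 9 genes of an MGE lineage list (*Lhx6*, *Lhx8*, *Nkx2-1*, *Sox6*, *Dlx1*, *Dlx2*, *Dlx5*, *Gad1* and *Gad2*) were at least 2-fold higher in both GFP+ populations than in ES-Lhx6-GFP- cells.

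Signaling by cAMP and calcium reaches several immediate early genes through CREB, which binds the cAMP response element of their promoters. The promoters of 4 members with its core TGACG are shown beside that of *Jun*, in which these letters were not found. Each sequence is the 250 bases before the transcript start in the RefSeq annotation of GRCm38.p6, written 5′ to 3′ on the strand of the gene. They lie at chr12:85473640-85473889 (plus strand, *Fos*), chr7:19310046-19310295 (minus, *Fosb*), chr8:84978749-84978998 (minus, *Junb*), chr1:191183334-191183583 (minus, *Atf3*) and chr4:95052223-95052472 (minus, *Jun*). Capitals mark TGACG, or CGTCA where it is read on the other strand.
*Fos*: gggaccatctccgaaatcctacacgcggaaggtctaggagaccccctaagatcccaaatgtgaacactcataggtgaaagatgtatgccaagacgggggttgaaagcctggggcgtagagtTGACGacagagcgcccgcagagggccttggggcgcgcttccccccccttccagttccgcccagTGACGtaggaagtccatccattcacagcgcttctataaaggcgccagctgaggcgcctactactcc
*Fosb*: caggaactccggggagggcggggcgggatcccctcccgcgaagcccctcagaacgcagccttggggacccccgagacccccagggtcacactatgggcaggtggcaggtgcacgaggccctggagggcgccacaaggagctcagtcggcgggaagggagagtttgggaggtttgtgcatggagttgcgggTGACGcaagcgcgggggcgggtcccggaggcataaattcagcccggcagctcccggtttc
*Junb*: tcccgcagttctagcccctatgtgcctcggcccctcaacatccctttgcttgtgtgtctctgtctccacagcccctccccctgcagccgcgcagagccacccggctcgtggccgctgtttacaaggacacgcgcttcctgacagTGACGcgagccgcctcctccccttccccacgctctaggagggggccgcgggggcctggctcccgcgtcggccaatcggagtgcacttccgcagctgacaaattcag
*Atf3*: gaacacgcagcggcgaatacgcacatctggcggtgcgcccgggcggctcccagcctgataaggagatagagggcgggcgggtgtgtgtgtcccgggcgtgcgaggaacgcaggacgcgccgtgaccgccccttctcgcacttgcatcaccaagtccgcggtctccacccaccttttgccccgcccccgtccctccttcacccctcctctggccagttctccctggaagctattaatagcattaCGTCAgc
*Jun*: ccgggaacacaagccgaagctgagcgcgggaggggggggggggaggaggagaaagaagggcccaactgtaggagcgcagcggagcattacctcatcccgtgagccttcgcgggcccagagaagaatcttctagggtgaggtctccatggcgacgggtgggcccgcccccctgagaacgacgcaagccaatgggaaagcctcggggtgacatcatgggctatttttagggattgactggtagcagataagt

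The table of promoters held 7 of the 10 members, and *Egr1*, *Ier2* and *Arc* were not among them. This core on either strand was found in 6 of the 7, all but *Jun*, and in 19.8% of the 27018 genes with such windows. *Fos* held 2, the nearer of which spans bases -66 to -62 from the start. *Nr4a1* held 4 on the opposite strand, and *Fosb* and *Junb* held 1 each. That of *Atf3* spans bases -7 to -3 on the opposite strand. Some genes, *Egr2* among the members, have several windows and so more letters to search. The CArG box, bound by serum response factor, was found in *Egr2* and in 1.62% of genes. The EGR site GCGGGGGCG was found in *Fosb*, where it overlaps no TGACG, and in *Nr4a1*, against 2.93% of genes. The AP-1 site, TGACTCA or TGAGTCA, was in none of the 7 and in 5.16% of genes. These matches describe letters in a window, and binding was not measured.

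**Figure D1:**
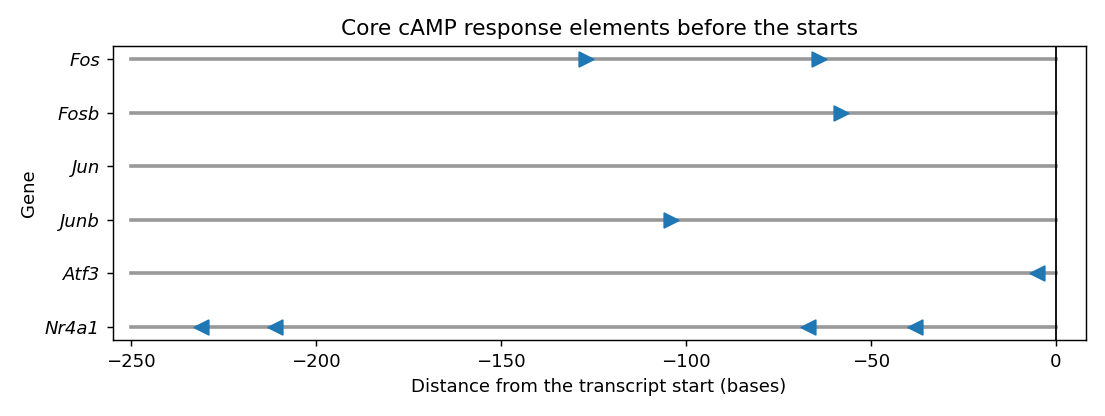
Distance in bases of each TGACG core from the transcript start (x axis, start at 0) in the 250 bases before the start of 6 immediate early genes (y axis). Triangles point right for the strand of the gene and left for the other strand. *Nr4a1* shows 4 sites, *Fos* 2, *Fosb*, *Junb* and *Atf3* 1 each, and *Jun* none.

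*Fos*, whose protein pairs with JUN proteins to form AP-1, was nearly level across the populations. Its intensities were 2693 in ES-Lhx6-GFP-, 2320 in ES-Lhx6-GFP+ and 1609 in MGE-GFP+ cells, and its scaled levels were 3.19, 3.11 and 2.79. The probe is printed 10 times on each array, and the spots read 2698 ± 159, 2324 ± 156 and 1611 ± 67.3 (SD over spots of 1 array). Between the ES populations *Fos* differed by -0.04 on the log2 scale (GFP+ over GFP-), within 2 repeat-spot SDs, and quantile normalization turned this to 0.02. MGE-GFP+ cells stood 1.11-fold under ES-Lhx6-GFP+ cells and 1.14-fold under the GFP- population. Both differences passed 2 SDs only as the error of the mean over 10 spots, which is narrower than the spread of single spots. Scaling on the 50th percentile turned both, to 0.60 and 0.11 on the log2 scale. No order of the 3 populations held for *Fos* under these scalings.

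*Fosb* encodes a FOS family subunit of AP-1 whose truncated form persists in active neurons. Its intensities were 5575 in ES-Lhx6-GFP-, 3189 in ES-Lhx6-GFP+ and 996 in MGE-GFP+ cells, or scaled levels of 6.61, 4.27 and 1.73. ES-Lhx6-GFP- cells were highest and MGE-GFP+ cells lowest. MGE-GFP+ cells were 2.47-fold below ES-Lhx6-GFP+ cells and 3.82-fold below ES-Lhx6-GFP- cells, and the ES populations differed 1.55-fold, each beyond 2 repeat-spot SDs. *Jun*, the central AP-1 subunit and a target of JNK kinases, had the pattern nearest to that of *Fosb* among the members. Its intensities were 3827, 2498 and 800 in the same order and its scaled levels 4.54, 3.35 and 1.39. MGE-GFP+ cells were 2.41-fold below ES-Lhx6-GFP+ and 3.27-fold below ES-Lhx6-GFP- cells, and the ES populations differed 1.36-fold. For both genes the order of the populations was the same after quantile normalization.

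*Junb* encodes a JUN protein that can also restrain the activity of c-JUN. Its intensities were 143 in ES-Lhx6-GFP-, 164 in ES-Lhx6-GFP+ and 22.0 in MGE-GFP+ cells, or scaled levels of 0.170, 0.220 and 0.0383. On all 3 arrays it lay within the range of the control probes, so its 5.74-fold lower level in MGE-GFP+ than in ES-Lhx6-GFP+ cells rests on dim signal, and in the deposited log2 values that difference was -0.67. Between the ES populations the direction of *Junb* changed with the scaling, from 0.37 to -0.22 on the log2 scale after quantile normalization.

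*Egr1* was the member that departed from the others. It encodes the zinc finger factor EGR1, a widely used marker of recent neuronal activity. Its intensities were 3407 in ES-Lhx6-GFP-, 6130 in ES-Lhx6-GFP+ and 2347 in MGE-GFP+ cells, with scaled levels of 4.04, 8.21 and 4.08. ES-Lhx6-GFP+ cells stood above both other populations, which were within the repeat-spot spread of each other at this scaling. *Egr1* was 2.03-fold higher in the GFP+ than in the GFP- population of the aggregates. It was 2.01-fold lower in MGE-GFP+ than in ES-Lhx6-GFP+ cells, and both directions were the same under 50th percentile scaling (0.58 and -0.26 on the log2 scale) and quantile normalization (1.12 and -1.27). *Egr2*, which encodes a second EGR factor best known for hindbrain segmentation and myelination, was ordered otherwise. Its intensities were 378, 203 and 94.6 and its scaled levels 0.448, 0.272 and 0.164, and only on the ES-Lhx6-GFP- array did it pass the control probes. MGE-GFP+ cells were 2.73-fold below ES-Lhx6-GFP- cells, and their 1.66-fold difference from ES-Lhx6-GFP+ cells was not seen under quantile normalization (0.035 on the log2 scale).

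*Nr4a1* encodes an orphan nuclear receptor and *Atf3* a stress-induced factor that dimerizes with JUN proteins. The intensities of *Nr4a1* were 287 in ES-Lhx6-GFP-, 228 in ES-Lhx6-GFP+ and 76.9 in MGE-GFP+ cells, or scaled levels of 0.340, 0.306 and 0.134. Those of *Atf3* were 222, 184 and 18.3, or scaled levels of 0.263, 0.246 and 0.0318. Under 75th percentile scaling both were near level between the ES populations, within the repeat-spot spread, and both were lowest in MGE-GFP+ cells. In ES-Lhx6-GFP+ over ES-Lhx6-GFP- cells, *Nr4a1* and *Atf3* were at -0.52 and -0.59 on the log2 scale after quantile normalization. Under 50th percentile scaling they were at -0.60 and -0.54, so that being level depended on the scaling. *Atf3* showed the largest difference of the 10 genes under 75th percentile scaling, 7.73-fold below ES-Lhx6-GFP+ cells for MGE-GFP+ cells, which also stood 8.27-fold below ES-Lhx6-GFP- cells. Outside the ES-Lhx6-GFP- array both genes were within the range of the control probes, and with the deposited log2 values, from which no background had been subtracted, the differences of *Atf3* shrank to -1.04 and -1.42. *Nr4a1* was 2.29-fold and 2.55-fold lower in MGE-GFP+ cells in the same comparisons. The first of these shrank to -0.44 on the log2 scale after quantile normalization, -0.45 under 50th percentile scaling and -0.53 with deposited values. The second was at -0.96, -1.04 and -0.77 in these settings.

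*Ier2* encodes a short-lived nuclear protein and *Arc* the dendritic protein that regulates removal of AMPA receptors from synapses. *Arc* gave intensities of 1212, 548 and 161 and scaled levels of 1.44, 0.734 and 0.279. It passed the control probes on all 3 arrays, but on the MGE-GFP+ array only narrowly, at 161 against 152. ES-Lhx6-GFP- cells were highest, 1.96-fold above ES-Lhx6-GFP+ cells, and MGE-GFP+ cells lowest, 2.63-fold below the latter and 5.14-fold below the former. In MGE-GFP+ over ES-Lhx6-GFP+ cells *Arc* was at -0.94 on the log2 scale with deposited values and -0.65 under 50th percentile scaling. Over ES-Lhx6-GFP- cells it was at -1.89 and -2.06. *Ier2* gave intensities of 320, 308 and 73.9 and scaled levels of 0.379, 0.413 and 0.128. The ES populations were within 2 repeat-spot SDs of each other, in a direction that changed with the scaling, and MGE-GFP+ cells were 3.22-fold below ES-Lhx6-GFP+ and 2.96-fold below ES-Lhx6-GFP- cells. It passed the control probes only on the ES-Lhx6-GFP- array, the differences were -0.93 and -0.88 on the log2 scale with deposited values, and the latter was -0.53 with the floor at the control probes.

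**Figure D2:**
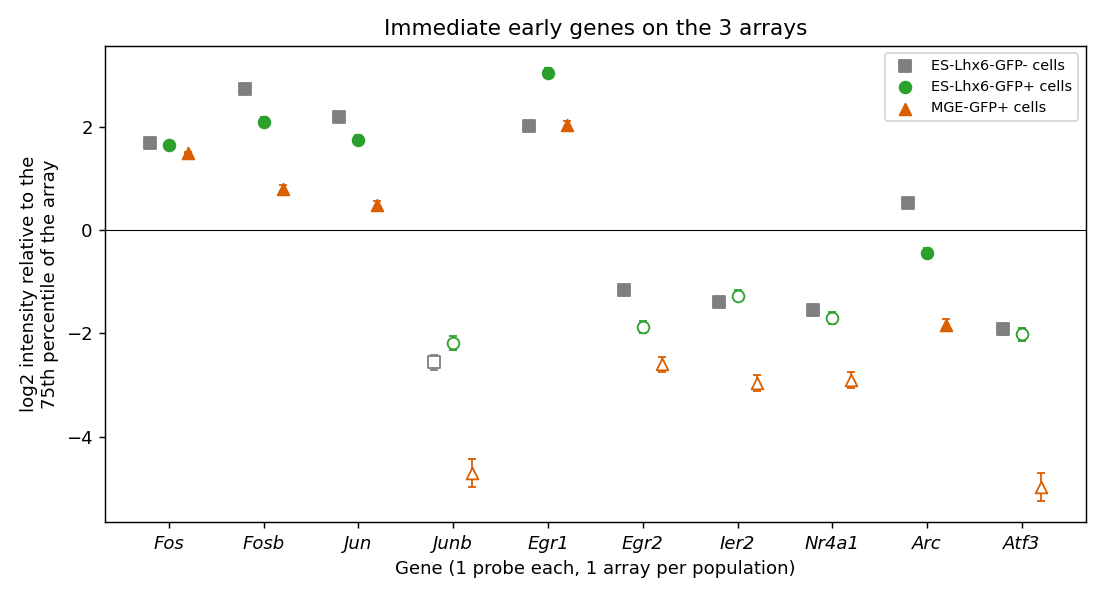
log2 intensity relative to the 75th percentile of the array (y axis) of the 10 immediate early genes (x axis) on the arrays of ES-Lhx6-GFP- cells (squares), ES-Lhx6-GFP+ cells (circles) and MGE-GFP+ cells (triangles). Bars are the SD of repeat spots of probes of similar brightness, divided for *Fos* by the square root of its 10 spots. Open symbols lie at or below the 95th percentile of the control probes. MGE-GFP+ cells were lowest for 9 of the genes, and for *Egr1* they were level with ES-Lhx6-GFP- cells, while heights of different genes cannot be compared because each has its own probe.

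Set together, MGE-GFP+ cells were below ES-Lhx6-GFP+ cells in all 10 genes and at least 2-fold below in 8, and 0 were at least 2-fold higher. Over all genes the shares were 32.2% lower and 5.48% higher, and the median difference was -1.29 for the 10 genes against -0.36 for all genes on the log2 scale. After quantile normalization, which places the median of all genes at 0.05, 7 of the 10 were at least 2-fold lower, against 13.7% of all genes lower and 14.6% higher, and *Egr2* was no longer below. Under 50th percentile scaling, which places the median of all genes at 0.40, only *Junb* and *Atf3* were at least 2-fold lower, near the 17.1% of all genes that were. With the deposited log2 values 4 genes were, against 8.31% of all genes. Relative to the median of all genes under 75th percentile scaling, *Fos* lay 0.20 above on the log2 scale and the other 9 genes below. This place of *Fos* depended on the scaling. After quantile normalization it was at -0.37 against a median of 0.05 for all genes, and with deposited values at -0.38 against 0.01.

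MGE-GFP+ cells were at least 2-fold below ES-Lhx6-GFP- cells in 8 of the 10 genes, all but *Fos* and *Egr1*, and 0 were at least 2-fold higher. The background was 17.2% of genes lower and 9.90% higher, with medians of -1.64 for the 10 genes and -0.06 for all genes. After quantile normalization 7 were at least 2-fold lower, against 12.8% of all genes lower and 10.4% higher. *Nr4a1*, at 1.95-fold, was the gene that no longer passed, and with the deposited log2 values 4 genes passed, against 9.44% of all genes. Where the control probes set the floor of each array, 8 genes had a value and 3 of them, *Fosb*, *Jun* and *Arc*, were at least 2-fold lower, against 10.6% of all genes with a value. These comparisons share the MGE-GFP+ array, so they are not independent of each other.

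The ES-Lhx6-GFP+ cells and their GFP- neighbors came from the same aggregates and the same dissociation, and their differences were smaller in size. Only *Egr1* was at least 2-fold higher and 0 were at least 2-fold lower, against 24.0% of all genes higher and 6.40% lower. *Fosb*, *Jun*, *Egr2* and *Arc* were lower in ES-Lhx6-GFP+ cells beyond 2 repeat-spot SDs, and *Fos*, *Junb*, *Ier2*, *Nr4a1* and *Atf3* were within them. The median was -0.13 for the 10 genes and 0.27 for all genes. After quantile normalization *Egr2* and *Arc* also passed 2-fold, lower in ES-Lhx6-GFP+ cells, against 15.0% of all genes lower and 11.5% higher. Under 50th percentile scaling *Egr1* no longer passed, and *Fosb*, *Egr2* and *Arc* were at least 2-fold lower, against 14.9% of all genes higher and 13.7% lower.

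**Figure D3:**
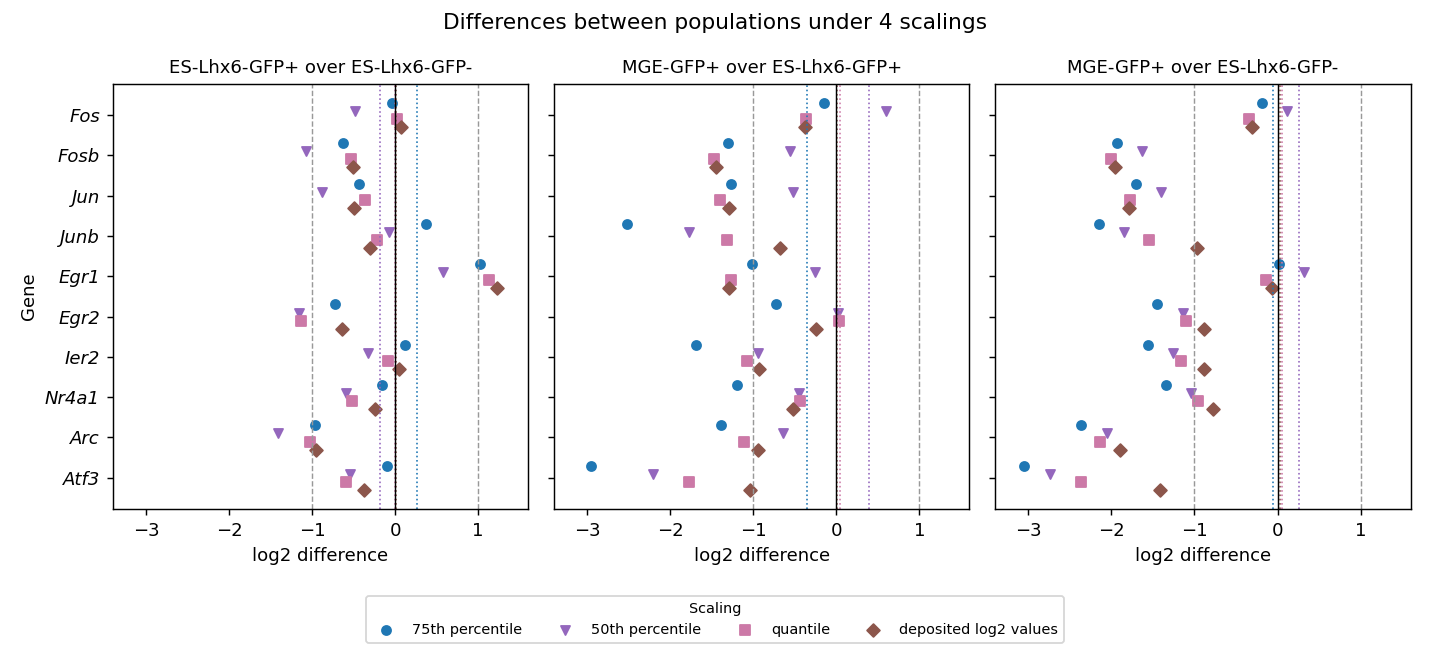
log2 differences (x axis) of the 10 genes (y axis) in the 3 comparisons, under 4 ways of scaling the arrays. Dashed lines mark 2-fold, and dotted lines the median of all genes under each scaling. *Fosb*, *Jun*, *Junb*, *Ier2*, *Nr4a1*, *Arc* and *Atf3* stay left of 0 in both comparisons of MGE-GFP+ cells, whereas *Fos* crosses 0 in all 3 comparisons.

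Percentile scaling moves all genes of an array together, so ratios to *Fos* on the same array were also taken, which do not depend on the percentile. Quantile normalization and the deposited values do change them. Under percentile scaling the other 9 genes were lower relative to *Fos* in MGE-GFP+ than in ES-Lhx6-GFP+ cells, beyond 2 repeat-spot SDs. The sizes ran from 1.49-fold for *Egr2* to 6.95-fold for *Atf3*. *Fos* had the highest difference of the 10 genes in this comparison, so the direction of the other 9 follows from taking it as the reference. *Egr2* turned to 0.40 on the log2 scale after quantile normalization and 0.14 with deposited values, and *Nr4a1* shrank to -0.08 and -0.15. *Fosb* was 2.22-fold, *Jun* 2.17-fold, *Arc* 2.37-fold and *Egr1* 1.81-fold lower relative to *Fos*, and these 4 passed the control probes on both arrays. After quantile normalization they were at -1.11, -1.04, -0.75 and -0.90 on the log2 scale, and with deposited values at -1.07, -0.92, -0.56 and -0.91. In MGE-GFP+ against ES-Lhx6-GFP- cells, *Fosb* was 3.34-fold, *Jun* 2.86-fold and *Arc* 4.50-fold lower relative to *Fos*, while *Egr1* was within the repeat-spot spread. Between the ES populations *Egr1* was 2.09-fold higher and *Arc* 1.90-fold lower relative to *Fos*, and after quantile normalization they were at 1.11 and -1.05 on the log2 scale. Against the repeat-spot spread, which holds no variation between cultures, embryos or sorts, the 10 genes did not differ between populations by a common factor.

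Under 75th percentile scaling, 7 of the 10 genes were ordered, highest first, from ES-Lhx6-GFP- through ES-Lhx6-GFP+ to MGE-GFP+ cells. For *Fos*, *Nr4a1* and *Atf3* this order includes a step within the repeat-spot spread. The share of all genes in this order was not counted. Of all genes, 64.5% were above 0 in ES-Lhx6-GFP+ over ES-Lhx6-GFP- cells. In MGE-GFP+ cells 36.4% were above 0 over ES-Lhx6-GFP+ cells and 47.4% over ES-Lhx6-GFP- cells. *Fosb* and *Jun* were the pair with the most similar profiles, 0.17 apart as a Euclidean distance of centered log2 values over the 3 arrays. Over 15540 genes well above background on all arrays, the profiles closest to that of *Fos* were those of *Mgat2*, *Svs3b* and *Sf3a2*, and those closest to *Egr1* were *Prss32*, *Pde10a* and *Tmem8b*. With only 3 arrays many genes come this close.

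A wider list of 50 genes of the early response, all on the array, was lower in MGE-GFP+ than in ES-Lhx6-GFP- cells more often than higher. In that comparison 20 were at least 2-fold lower and 3 higher, or 40.0% and 6.00%, against 17.2% and 9.90% of all genes, with a median of -0.76. The RNA-binding protein gene *Zfp36l1*, which hastens decay of mRNAs with AU-rich elements, had intensities of 6957 in ES-Lhx6-GFP-, 728 in ES-Lhx6-GFP+ and 254 in MGE-GFP+ cells. It was 18.7-fold lower in MGE-GFP+ and 8.46-fold lower in ES-Lhx6-GFP+ than in ES-Lhx6-GFP- cells. *Btg2*, an antiproliferative gene of dividing neural progenitors, was 10.8-fold and 3.86-fold lower in the same comparisons, and *Tob1*, of the same family, stood 4.07-fold lower in the GFP+ than in the GFP- population of the aggregates.

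The wider list also holds growth arrest and DNA damage genes. *Gadd45g* had intensities of 4460, 2843 and 472, so that the MGE-GFP+ level was 6.45-fold below the first and 4.64-fold below the second. *Gadd45b* was 11.2-fold and 5.33-fold lower in these comparisons, with an MGE-GFP+ intensity of 35.1 that lay within the control probes. *Ccn2* (also *Ctgf*), a matricellular protein gene induced by serum response factor and YAP, had intensities of 980, 543 and 25.6, with 26.1-fold and 16.4-fold lower levels in MGE-GFP+ cells, where it too was within the control probes. *Egr3*, which encodes another EGR factor, was 3.14-fold lower in MGE-GFP+ than in ES-Lhx6-GFP+ cells, and within the control probes in the former. *Nr4a2*, which marks several neuron types besides its early response, was the reverse, 5.24-fold higher in MGE-GFP+ than in ES-Lhx6-GFP+ cells over 2 probes.

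In MGE-GFP+ against ES-Lhx6-GFP+ cells, 16 of 48 wider genes with a value were at least 2-fold lower and 2 higher, close to the 32.2% of all genes, with a median of -0.38 against -0.36 for all genes. The split turned with the scaling. Under 50th percentile scaling 13 were higher and 6 lower, against 26.0% and 17.1% of all genes, with a median of 0.37. After quantile normalization 6 of 47 were higher and 8 lower, against 14.6% and 13.7% of all genes, with a median of 0.03. With deposited values the median was 0.06. Between the ES populations 11 of 50 were lower by at least 2-fold on the GFP+ side and 2 higher, or 22.0% and 4.00%, against 6.40% and 24.0% of all genes, with a median of -0.43. After quantile normalization 19, or 38.0%, were lower, against 15.0% of all genes. The higher ones, *Dusp2* and *Fosl1*, were within the control probes on both arrays.

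**Figure D4:**
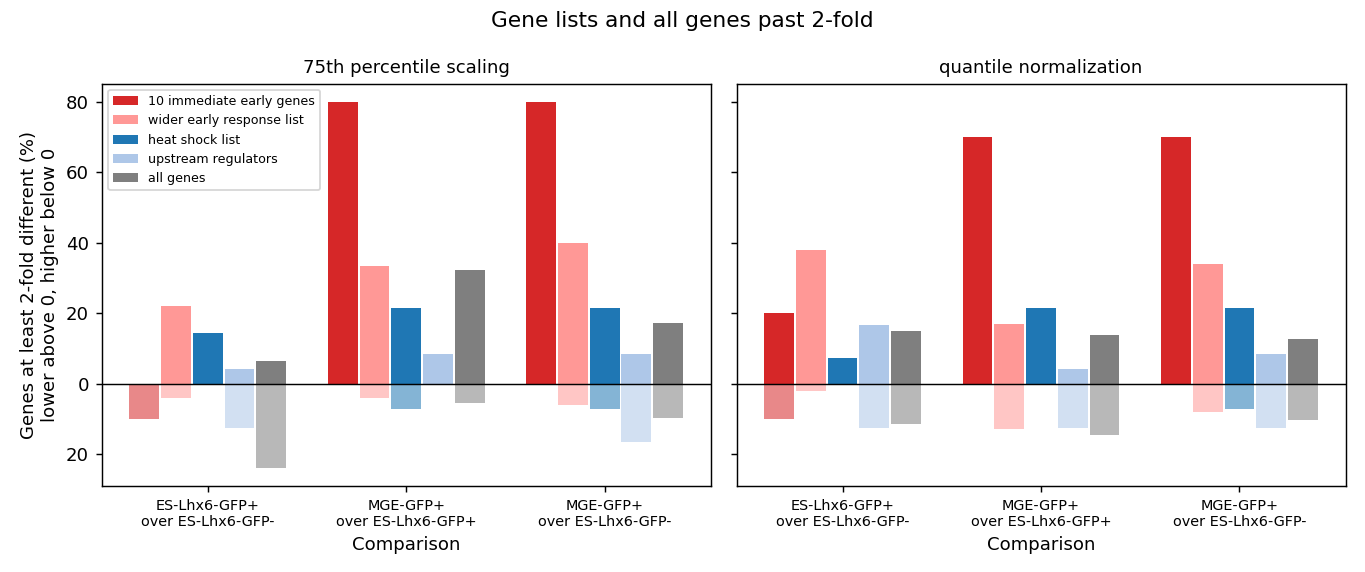
Share of genes at least 2-fold different (y axis, percent, lower above 0 and higher below 0) in the 3 comparisons (x axis) for the 10 immediate early genes, the wider list, heat shock genes, upstream regulators and all genes, under 75th percentile scaling (left) and quantile normalization (right). In both comparisons of MGE-GFP+ cells 80.0% of the 10 genes were lower under the first and 70.0% under the second.

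By summed intensity before scaling, the mesenchymal, radial glia and pluripotency markers had the order of populations of most of these genes, highest in ES-Lhx6-GFP- cells. These sums were not divided by the percentile of their array. The pluripotency sums, 256705, 231372 and 225231, were mostly the probe named *Nanog*, at 251126, 230708 and 225105. Under 75th percentile scaling this probe had the reverse order, at 0.05 and 0.34 on the log2 scale in ES-Lhx6-GFP+ over ES-Lhx6-GFP- and MGE-GFP+ over ES-Lhx6-GFP+ cells. After quantile normalization it was at -0.15 and -0.05. Gene by gene, 3 of the 6 mesenchymal and 2 of the 4 pluripotency markers were higher in ES-Lhx6-GFP+ than in ES-Lhx6-GFP- cells under 75th percentile scaling. Of 6 mesenchymal markers, 5 passed the control probes in ES-Lhx6-GFP-, 2 in ES-Lhx6-GFP+ and 0 in MGE-GFP+ cells, where *Col1a1*, *Col1a2* and *Col3a1* were all within them, and their summed intensities were 4531, 2813 and 182. Their part in the levels of the immediate early genes was not tested. Radial glia markers, 7 genes, summed to 51228, 8978 and 8483. Their median difference was -2.37 between the ES populations, where the immediate early genes were at -0.13, and -0.02 in MGE-GFP+ over ES-Lhx6-GFP+ cells, where the latter were at -1.29. Microglia and endothelial markers, which also carry strong early responses on dissociation, passed the control probes for 1 or 2 of 6 genes on each array. Erythroid markers summed to 666, 802 and 6134, highest in MGE-GFP+ cells. In RNA of a sorted population, fewer expressing cells and less RNA per cell cannot be told apart.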

How the data were processed

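The authors hybridized 1 array per population and extracted the images with Agilent Feature Extraction, version 10.7.3.1 per the file headers, and the deposited files hold background-subtracted spot intensities on a linear scale, not scaled between arrays. The authors also deposited log2 values, which lay within 0.098 of quantile-normalized log2 median intensities without background subtraction for every probe (column medians 7.68 to 7.69) and served as an alternative. Spots with outlier flags were left out (98 to 137 per array), saturated spots numbered 0, and the kept spots of a probe were averaged. Intensities were divided by the 75th percentile of mouse probes on each array, log2 was taken, and a gene's difference is the mean over its probes. Probes not well above background were raised to the lowest level of those that were. Names came from RefSeq accessions, which matched 26582 of 55681 probes. The alternatives were 50th percentile scaling, quantile normalization, deposited values, no floor, a floor at the control probes, the brightest probe and flagged spots kept. Named were the 10 genes and, per list and comparison, up to 5 genes with the largest differences of at least 2-fold among those well above background on both arrays and on the same side after quantile normalization. The members and lists were chosen with earlier results of these data known. The procedure was tested on simulated data. Python 3.11.15, numpy 2.4.6, pandas 2.3.3, R 4.3.3 and limma 3.58.1 were used.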

Additional observations from a re-analysis of the deposited data

How the results depend on the processing

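With 1 array per population no replicate could be left out. No paired analysis was possible because each population has 1 array. The normexp correction on mean intensities was not run, because the scanner files hold median and processed spot intensities and no mean, and normexp on median intensities and centering on the median gene were added after seeing the data. Each of the 10 genes has 1 probe, well above background on all 3 arrays. Keeping dim probes at their values or using the brightest probe therefore could not change the 30 member differences. Keeping outlier spots moved none of the 30 beyond the repeat-spot spread. The deposited values and normexp leave dim probes closer together by construction, and the floor at the control probes leaves fewer genes. For other moves the cause was not tested.

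In ES-Lhx6-GFP+ against ES-Lhx6-GFP- cells, 1 member was at least 2-fold higher and 0 lower in the main setting. Under 50th percentile scaling 0 were higher and 3 lower (14.9% and 13.7% of all genes), and after quantile normalization 1 was higher and 2 lower, 3 in each case. The members' median was -0.57 under 50th percentile scaling, -0.44 after quantile normalization, -0.34 with deposited values, -0.44 with the floor at the control probes, -0.39 after centering, and turned to 0.0099 with normexp. Of 50 wider genes, 24 passed 2-fold under 50th percentile scaling (2 higher and 22 lower, against 14.9% and 13.7% of all genes). After quantile normalization 20 did (1 and 19, against 11.5% and 15.0%), and after centering 20 (2 and 18, against 18.0% and 9.89%). With the control floor 5 of 34 did (0 and 5, against 7.10% and 5.97%), and with normexp 6 of 49 (1 and 5, against 11.8% and 4.36%). Of 14 heat shock genes, 1 was lower under quantile normalization and 1 with deposited values, against 15.0% and 6.75% of all genes. *Fos* turned to 0.019, 0.074 and 0.0014 with quantile normalization, deposited values and normexp. *Junb* turned to -0.0695, -0.22 and -0.30 under 50th percentile scaling, quantile normalization and deposited values, and *Ier2* to -0.32, -0.088 and -0.14 under 50th percentile scaling, quantile normalization and centering. *Nr4a1* and *Atf3* turned to 0.018 and 0.048 with normexp.

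In MGE-GFP+ against ES-Lhx6-GFP+ cells, 2 members were at least 2-fold lower under 50th percentile scaling (17.1% of all genes) and 4 each with deposited values (8.31%), the control floor (of 5 with a value, 10.07%) and centering (24.2%), and 0 were higher. The members' median was -0.54, -0.93, -1.08 and -0.93 under 50th percentile scaling, deposited values, normexp and centering. Of 48 wider genes, 6 passed 2-fold with deposited values (1 higher and 5 lower, against 5.89% and 8.31% of all genes). With the control floor 8 of 30 did (2 and 6, against 7.59% and 10.07%), and with normexp 9 of 48 (2 and 7, against 4.08% and 10.9%). Of 14 heat shock genes, 9 passed under 50th percentile scaling (6 higher and 3 lower, against 26.0% and 17.1% of all genes). With deposited values 2 of 14 did (0 and 2), and with the control floor 2 of 12 (1 and 1). *Fos* turned to 0.60 under 50th percentile scaling and 0.20 after centering, and *Egr2* to 0.019 under 50th percentile scaling and 0.035 after quantile normalization.

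In MGE-GFP+ against ES-Lhx6-GFP- cells, 4, 3 and 4 members were at least 2-fold lower with deposited values, the control floor and normexp, against 9.44%, 10.6% and 8.85% of all genes. Their median was -1.33, -1.35, -0.93, -0.65 and -0.97 under 50th percentile scaling, quantile normalization, deposited values, the control floor and normexp. The wider list gave 15 with the control floor and 15 with normexp. *Fos* turned to 0.11 under 50th percentile scaling, and *Egr1* to -0.14 after quantile normalization and -0.066 with deposited values.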

Other observations

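Heat shock genes belong to another early stress response. Of 14 on the array, 3 were lower by at least 2-fold in MGE-GFP+ cells against each ES population and 1 higher, or 21.4% and 7.14%. Of all genes, 32.2% were lower and 5.48% higher against ES-Lhx6-GFP+ cells, and 17.2% and 9.90% against ES-Lhx6-GFP- cells. The medians of the list were 0.21 and -0.09. Under 50th percentile scaling 6 were higher and 3 lower in the first comparison, against 26.0% and 17.1% of all genes. *Bag3*, a co-chaperone that heat and proteotoxic stress induce, had intensities of 1119 in ES-Lhx6-GFP-, 832 in ES-Lhx6-GFP+ and 110 in MGE-GFP+ cells and was 6.95-fold and 5.84-fold lower in MGE-GFP+ cells, where it lay within the control probes. *Hspa1a*, the inducible HSP70 gene, was 9.91-fold and 7.92-fold lower there, but its MGE-GFP+ intensity of 19.0 lay within the control probes, and its probe may also read the near-identical *Hspa1b*. In ES-Lhx6-GFP+ against ES-Lhx6-GFP- cells *Hspb1* was 7.21-fold lower, with an intensity of 209 in the former that lay within the control probes, and *Hspa5*, the chaperone of the endoplasmic reticulum, was 2.16-fold lower. *Hspd1* was 2.08-fold higher in MGE-GFP+ than in ES-Lhx6-GFP+ cells, and *Hsph1* 2.23-fold higher than in ES-Lhx6-GFP- cells.

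Of 24 regulators that act upstream of immediate early genes (kinases of the MAPK pathways, CREB, serum response factor and their cofactors), 3 were at least 2-fold higher and 1 lower in ES-Lhx6-GFP+ than in ES-Lhx6-GFP- cells, 0 higher and 2 lower in MGE-GFP+ than in ES-Lhx6-GFP+ cells, and 4 higher and 2 lower in MGE-GFP+ than in ES-Lhx6-GFP- cells. The shares over all genes were 24.0% higher and 6.40% lower, 5.48% and 32.2%, and 9.90% and 17.2% in these comparisons. Under 50th percentile scaling the second turned to 11 higher and 0 lower, against 26.0% and 17.1% of all genes. *Rps6ka1*, an ERK-activated kinase, had intensities of 1445 in ES-Lhx6-GFP-, 560 in ES-Lhx6-GFP+ and 174 in MGE-GFP+ cells and was 2.29-fold lower in the first comparison and 2.48-fold lower in the second. *Mef2c*, a factor of maturing neurons, was 5.40-fold higher in ES-Lhx6-GFP+ and 6.92-fold higher in MGE-GFP+ than in ES-Lhx6-GFP- cells, where its intensity was within the control probes. *Mapk8*, which encodes the kinase JNK1, was 2.21-fold and 3.48-fold higher over 3 probes. *Map2k1*, which encodes the ERK-activating kinase MEK1, was 3.31-fold lower in MGE-GFP+ than in ES-Lhx6-GFP- cells, and within the control probes in the former.

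The pluripotency markers *Pou5f1*, *Zfp42* and *Dppa5a* were within the control probes in ES-Lhx6-GFP+ and MGE-GFP+ cells, whereas the probe named *Nanog* read 251126 in ES-Lhx6-GFP-, 230708 in ES-Lhx6-GFP+ and 225105 in MGE-GFP+ cells.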
